A study of Mus musculus with 2 samples.

Results

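The 10 genes described here carry or control the transport of acid, bicarbonate and ammonium in the kidney collecting duct: Slc4a1, Slc4a9, Slc26a4, Atp6v1g3, Atp6v0d2, Atp6v1c2, Foxi1, Rhbg, Rhcg and Car2. They were chosen by name, and each was found once among the 31053 genes counted. Their UMIs (unique molecular identifiers, each standing for 1 captured RNA molecule) were summed per cell and per marker-defined cell class in a 10x Chromium 3' single-cell data set of mouse kidney. There was 1 library from wild type (WT) mice and 1 from mice labelled Kif3aΔTub and, as genotype, KO, both at 5 weeks of age. Kif3a encodes a subunit of the kinesin motor that builds the primary cilium, and ΔTub names its deletion in the tubule. The number of mice behind each library and the driver of the deletion are not given in the sources used here, and the wild type mice carry no other allele or treatment in the labels. With 1 library per genotype there is no replicate variation, so every difference below is between these libraries. Intervals are 95% and cover counting error only, and no p-value was computed.

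Intercalated cells are the acid-base cells of the collecting duct and connecting tubule. Type A cells secrete protons into the urine through a vacuolar proton pump (V-ATPase) and return bicarbonate to the blood through the exchanger Slc4a1 (AE1, also the band 3 protein of red cells). Type B cells secrete bicarbonate through the exchanger Slc26a4 (pendrin) at the apical side. Rhbg and Rhcg carry ammonia and ammonium across the basolateral and apical membranes on the way to the urine, Car2 is the cytosolic carbonic anhydrase that makes protons and bicarbonate from carbon dioxide and water, and Foxi1 is the forkhead transcription factor required for intercalated cells to form.

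Of 6938 wild type and 7950 knockout barcodes, 4317 and 7066 were kept as cells, at a median depth of 7771 and 7799 UMIs. The libraries stood apart in mitochondrial UMIs, at a median of 26.8% in wild type and 7.54% in knockout, so a level is given here in CPM, the UMIs of a gene per 1000000 non-mitochondrial UMIs. They shared 17 barcodes. Clusters were made without the 10 genes and named from other markers. Type A intercalated-like cells numbered 120 in wild type and 297 in knockout and were named from Kit, Aqp6, Adgrf5 and Dmrt2, among others. Type B intercalated-like cells, named from Insrr, Hmx2, Oxgr1, Sh2d4b and Spink8, numbered 167 and 150. Median UMIs per cell were 11529.5 and 8474 in type A and 10219 and 8364 in type B. Over the whole of each library Kif3a itself was read at 14.5 CPM (13.2 to 15.9) in the wild type and 13.6 (12.8 to 14.5) in the knockout. In type A-like cells it was read at 26.5 (17.6 to 38.4) and 11.5 (7.61 to 16.8), from 28 and 27 UMIs. A 3' tag may lie outside the deleted part of the gene, so these values do not check the genotype.

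Promoter windows are shown for 3 of the genes: the V-ATPase subunit genes Atp6v1g3 and Atp6v1c2, which shared their cell classes but differed in the knockout comparison below, and Slc26a4, which set type B apart from type A. Windows were found for 5 of the 10 genes (these 3, Foxi1 and Rhcg) and come from RefSeq on GRCm38.p6, the 250 bases before the annotated start, 5′ to 3′ on the gene's strand. Capitals mark TGTTTG, a form of the core motif of forkhead factors, on either strand (CAAACA on the other).
Atp6v1g3, chr1:138273488-138273737, plus strand: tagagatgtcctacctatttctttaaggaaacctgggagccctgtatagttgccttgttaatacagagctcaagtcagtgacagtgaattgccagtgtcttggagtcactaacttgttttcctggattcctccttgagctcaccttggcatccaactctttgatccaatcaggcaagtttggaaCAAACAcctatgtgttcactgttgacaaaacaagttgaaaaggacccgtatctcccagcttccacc
Atp6v1c2, chr12:17324731-17324980, minus strand: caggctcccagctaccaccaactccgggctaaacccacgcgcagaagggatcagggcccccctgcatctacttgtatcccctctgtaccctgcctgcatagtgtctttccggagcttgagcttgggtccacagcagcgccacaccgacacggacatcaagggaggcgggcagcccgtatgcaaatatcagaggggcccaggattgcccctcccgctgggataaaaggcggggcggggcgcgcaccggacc
Slc26a4, chr12:31559985-31560234, minus strand: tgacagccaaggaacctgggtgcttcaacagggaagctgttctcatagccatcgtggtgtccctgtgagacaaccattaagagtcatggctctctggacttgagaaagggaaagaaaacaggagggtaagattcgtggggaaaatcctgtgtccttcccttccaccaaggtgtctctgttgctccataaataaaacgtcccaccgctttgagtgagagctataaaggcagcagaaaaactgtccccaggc
TGTTTG was present in 1 of the 5 windows, that of Atp6v1g3, and in 16.0% of all 32851 windows. The variant TGTTTA, also searched on both strands, was in none of the 5 and in 12.0% of all windows. A match here is a description of letters and not a binding site, and the absence of one says nothing about Foxi1.

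The classes in which the 10 genes were found are described first. In the wild type library, 3 exchangers divided the intercalated types. Slc4a1 was read at 1062 CPM (1000.5 to 1126) in type A-like cells, at 52.4 (40.7 to 66.4) in type B-like cells and at 4.41 or less in every other class with at least 50 cells. Slc26a4 had the reverse pattern, with 1191 CPM (1132 to 1252) in type B-like and 2.84 (0.586 to 8.31) in type A-like cells. Slc4a9, the exchanger AE4 of the basolateral membrane of type B cells, was read at 304 (275 to 336) in type B-like and 130 (109 to 154) in type A-like cells and was thus 2.34-fold higher in type B. Among the other named classes with at least 50 wild type cells, none of the 3 exceeded 4.41 CPM. Wild type UMIs in unnamed clusters are given further on.

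The 3 V-ATPase subunits are isoforms enriched in kidney: Atp6v1g3 encodes the G3 and Atp6v1c2 the C2 subunit of the cytosolic V1 sector, and Atp6v0d2 the d2 subunit of the membrane V0 sector. All 3 were higher in type B-like than in type A-like cells of wild type. Atp6v1g3 was read at 4230 and 3232 CPM, Atp6v1c2 at 1963 and 1285, and Atp6v0d2 at 1260 and 1133. Among the other named classes with at least 50 wild type cells, no level exceeded 40.7 for Atp6v1g3, 11.9 for Atp6v0d2 and 16.7 for Atp6v1c2. The first 2 of these values, in endothelium-like cells, rest on few cells: 19 of the 24 Atp6v1g3 UMIs and all 7 of Atp6v0d2 lay in single cells of 155. Foxi1 was read at 578 CPM (537 to 621) in type B-like and 483 (442 to 526) in type A-like cells and at 11.01 in principal-like cells, the next class. That last value also rests on few cells: its 10 UMIs lay in 2 of 143 cells, 8 of them in 1 cell.

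The ammonium and carbonic anhydrase genes reached beyond the intercalated cells. Rhbg, which sits in the basolateral membrane, was read in wild type at 824 CPM (770 to 880) in type A-like, 360 (328 to 394) in type B-like, 243 (182 to 317) in connecting tubule-like and 128 (106 to 153) in principal-like cells. The type B-like and connecting tubule-like intervals do not overlap, while those of connecting tubule-like and principal-like cells lie apart as well. Rhcg, which is found in the apical membrane, was similar in 3 classes: 796 (682 to 924) in connecting tubule-like, 757 (701 to 815) in principal-like and 696 (646 to 748) in type A-like cells. The intervals of neighbours in that order overlap, and type B-like cells followed at 499.9 (462 to 540). Car2 was read at 3684 in type B-like, 3382 in type A-like, 1844 in principal-like and 861 in proximal tubule-like cells. Proximal tubule-like cells made up most of the wild type library and therefore held 54.9% of all Car2 UMIs there, against 8.53% in knockout.

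**Figure D1:**
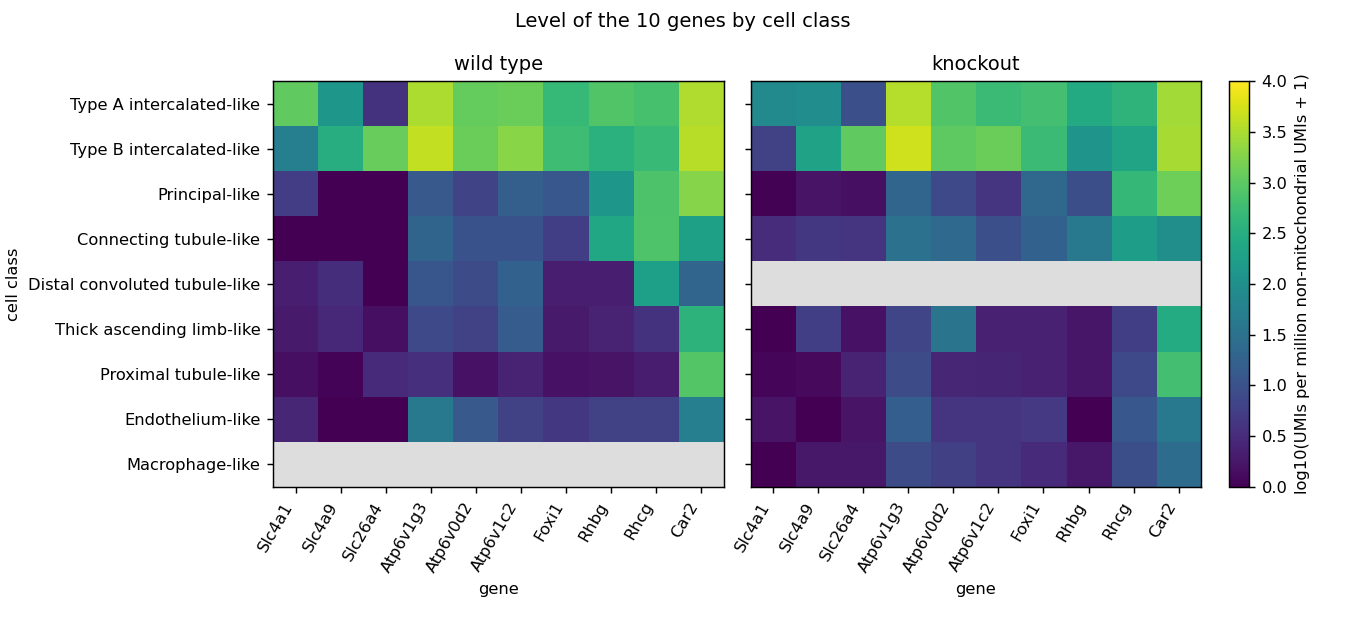
Level of each of the 10 genes (columns) in 9 cell classes (rows) in the wild type (left) and knockout (right) library, as log10 of CPM plus 1. Grey rows are classes with fewer than 50 cells in that library. Slc4a1, Slc26a4 and the V-ATPase subunits are highest in the 2 intercalated-like rows, and Rhbg, Rhcg and Car2 extend to principal-like cells.

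Type A-like cells were compared between the libraries next. There, 3 of the 9 genes that had at least 50 UMIs over both libraries were at least 2-fold lower in knockout: Slc4a1, Rhbg and Atp6v1c2. Among all 7515 genes with that many UMIs, 3.77% were at least 2-fold lower. None of the 9 was at least 2-fold higher, against 5.02% of all genes. The median log2 ratio was -0.55 over the 9 genes and 0.02 over all genes. No test across replicates is possible for these counts.

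Slc4a1 showed the largest difference among the 10 genes in type A-like cells. Its level was 1062 CPM (1000.5 to 1126) in the wild type and 77.0 (66.2 to 89.1) in knockout, a log2 ratio of -3.78 (-4.02 to -3.56), or 13.8-fold lower. The difference was present cell by cell: 119 of 120 wild type cells held a Slc4a1 UMI, with a median of 8 and at most 25, while 82 of 297 knockout cells did, with a median of 0 and at most 7. With every cell thinned to 2000 UMIs, 91 of 120 wild type cells (75.8%, 67.2 to 83.2 by the Clopper-Pearson method) and 28 of 285 knockout cells (9.82%, 6.63 to 13.9) held one. In proximal tubule-like cells, which should lack the gene, the thinned counts were 1 of 2319 and 0 of 850, the latter allowing up to 0.433%. The knockout share in type A-like cells therefore lay above that level. Red cells also make Slc4a1 RNA, and the 6 erythroid markers summed to 1.90 CPM in the wild type and 1.28 in knockout type A-like cells, with Alas2 at 0 in both.

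**Figure D2:**
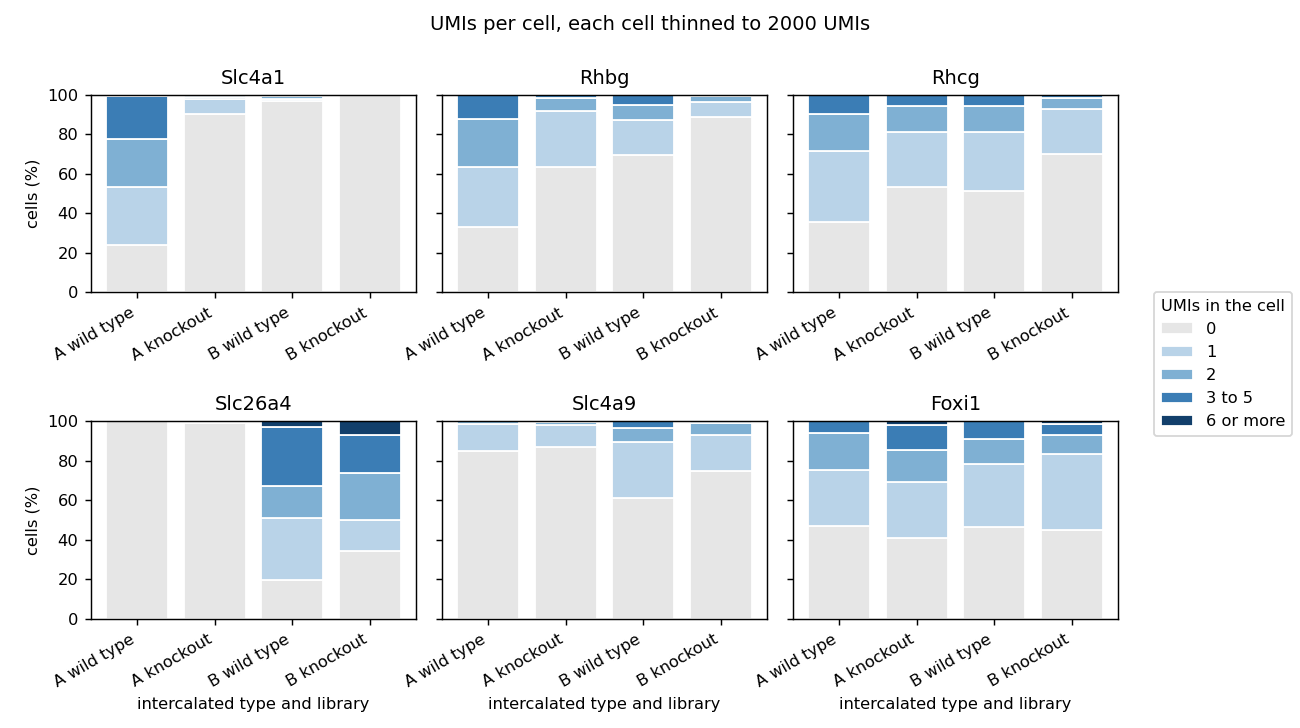
Share of cells (percent, vertical axis) with 0, 1, 2, 3 to 5 and 6 or more UMIs of 6 genes, in type A (A) and type B (B) intercalated-like cells of each library, after thinning each cell to 2000 UMIs. Most wild type type A-like cells hold a Slc4a1 UMI (91 of 120) and few knockout ones do (28 of 285), while the Foxi1 bars are close to each other.

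The ammonium genes were lower as well. Rhbg was read at 824 CPM in the wild type and 282 (261 to 305) in knockout type A-like cells, a log2 ratio of -1.54 (-1.69 to -1.40). At 2000 UMIs per cell it was found in 80 of 120 wild type and 104 of 285 knockout cells. Rhcg was read at 696 and 392 (367 to 418), a log2 ratio of -0.83 (-0.97 to -0.69), which is short of 2-fold. Among the pump subunits, Atp6v1c2 was read at 1285 (1217 to 1355) and 528 (499 to 559), a log2 ratio of -1.28 (-1.39 to -1.17). Its V1 partner Atp6v1g3 was slightly higher, at 3232 and 3614, a log2 ratio of 0.16 (0.10 to 0.22). Atp6v0d2 lay between them at 1133 and 826 (log2 ratio -0.46, -0.56 to -0.35).

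The remaining members were within 1.5-fold of each other in the 2 libraries, apart from Slc26a4. Slc4a9 was read at 130 and 89.0 CPM (log2 ratio -0.55, -0.86 to -0.22) and Car2 at 3382 and 2835 (-0.25, -0.31 to -0.20). Foxi1 was read at 483 and 626 (log2 ratio 0.37, 0.23 to 0.52), and was thus slightly higher in knockout in the same cells in which Slc4a1 and Rhbg were lower. Slc26a4 had 3 UMIs in wild type and 20 in knockout type A-like cells, or 2.84 and 8.55 CPM, under the 50 UMIs needed for the comparison.

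Marker sums also differed between the libraries in type A-like cells. The 6 type A markers, which were used to name the class, summed to 5295 CPM in the wild type and 3509 in knockout, and the 8 principal cell markers to 906 and 1000.1. The 7 injured tubule markers summed to 393 and 2018, with Havcr1, Krt20, Vcam1 and Lcn2 at 0 in wild type and only Krt20 at 0 in knockout. The 10 proximal tubule markers summed to 724 and 25.7, the 6 distal convoluted tubule markers to 719 and 261, the 5 type B markers to 898 and 432 and the 6 monocyte markers to 64.5 and 1360, with Ly6c2 and Fcgr4 at 0 in both. The monocyte markers Ccr2 and Chil3 were also at 0 in wild type. The 6 macrophage markers summed to 1.90 and 28.7 CPM. Median mitochondrial shares were 24.2% and 11.2%. The part of the marker sums in the member values was not tested. The log2 ratio of Slc4a1 was -3.96 in the type A-like cells under 25% mitochondrial UMIs and -3.71 in those without a UMI of Aqp2, the water channel of principal cells.

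In type B-like cells 3 of 10 genes were at least 2-fold lower in knockout, Slc4a1, Rhbg and Rhcg, against 4.73% of the 6294 genes with at least 50 UMIs. None was at least 2-fold higher, against 3.26% of all genes. Slc26a4, the exchanger of these cells, was read at 1191 CPM (1132 to 1252) in the wild type and 1062 (1004.7 to 1121) in knockout, a log2 ratio of -0.17 (-0.27 to -0.06) that turned to 0.11 when mitochondrial UMIs were part of the total. The share of type B-like cells with a Slc26a4 UMI at 2000 UMIs per cell was 108 of 134 in wild type and 75 of 114 in knockout. Slc4a9 was read at 304 and 204 (179 to 231), a log2 ratio of -0.58 (-0.81 to -0.34), almost the same as in type A-like cells.

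Rhbg differed between the libraries in type B-like cells about as much as in type A-like cells. It was read at 360 CPM (328 to 394) in the wild type and 117 (98.4 to 138) in knockout, a log2 ratio of -1.62 (-1.90 to -1.35). Rhcg was read at 499.9 and 220 (194 to 248), a log2 ratio of -1.19 (-1.40 to -0.98), and stayed past 2-fold in 10 of 13 alternatives. Atp6v1c2 was read at 1963 and 1267, a log2 ratio of -0.63 (-0.72 to -0.54), which is a smaller difference than the one in type A-like cells and whose interval does not overlap that of type A, although the difference between the types was not tested across replicates. Atp6v1g3 was again slightly higher, at 4230 and 5159 (log2 ratio 0.29, 0.23 to 0.34). Atp6v0d2, Car2 and Foxi1 had log2 ratios of -0.29, -0.27 and -0.14, and the interval of Foxi1 (-0.30 to 0.01) includes 0, with a value of 0.13 when mitochondrial UMIs were part of the total. In these cells the proximal tubule markers summed to 676 CPM in the wild type and 65.8 in knockout, the injured tubule markers to 276 and 1661, the type A markers to 314 and 623 and the monocyte markers to 314 and 822. Of the monocyte markers, Ly6c2, Ccr2, Chil3 and Fcgr4 were at 0 in both libraries. Ace was also at 0 in wild type, so that the wild type sum came from Plac8 alone. The 6 macrophage markers summed to 2.31 and 20.6 CPM. The part of these sums in the member values was not tested.

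The Slc4a1 value of type B-like cells rests on few cells. Of the 68 wild type UMIs, 64 came from 4 of 167 cells, the highest with 31, and 161 cells had none. Those 4 cells had a median of 29672 UMIs, against 10219 in the class, and 5 of the 6 cells with Slc4a1 also held Slc26a4. In knockout there were 6 UMIs in 5 of 150 cells. The log2 ratio of -3.30 is therefore a statement about those 4 cells.

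**Figure D3:**
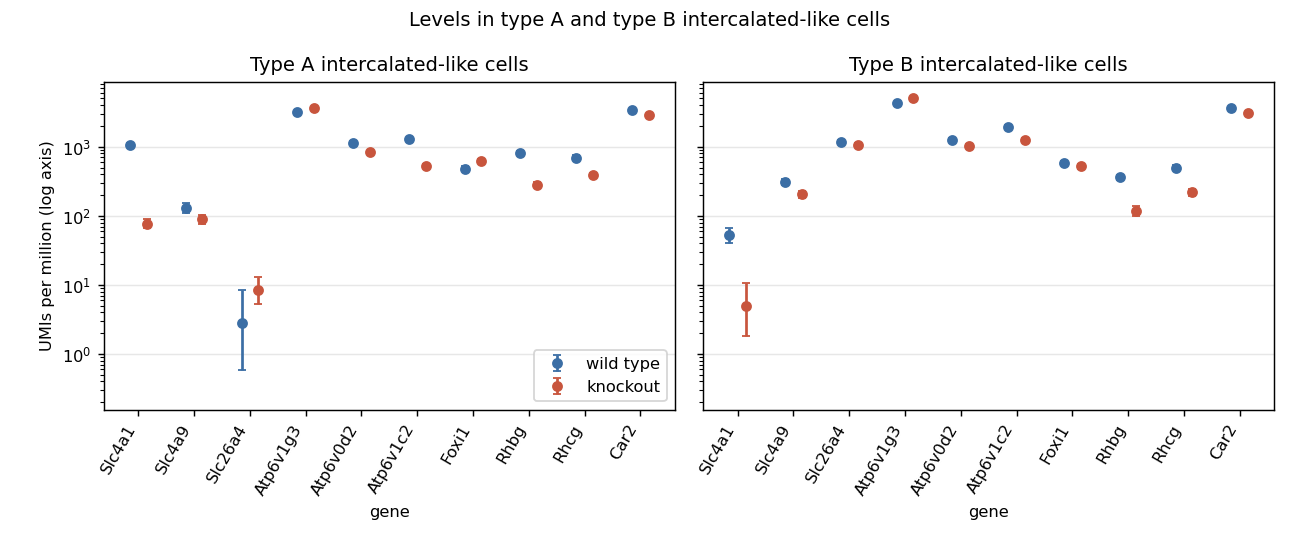
Level in CPM (vertical log axis) of the 10 genes in type A (left) and type B (right) intercalated-like cells. Points are the wild type (blue) and knockout (red) library and bars are exact Poisson 95% intervals of the UMI sum. Slc4a1 in type A-like cells lies at 1062 in wild type and 77.0 in knockout, while Slc26a4 in type B-like cells lies at 1191 and 1062.

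The separation of the 2 intercalated types by the exchangers was also present in knockout. Slc4a1 was 20.1-fold higher in type A-like than in type B-like cells of wild type (log2 ratio of A to B 4.33, 3.99 to 4.72). Of the 68 wild type UMIs in type B-like cells, 64 lay in 4 of 167 cells, so the size of this ratio rests on those 4 cells. In knockout Slc4a1 was 14.4-fold higher in type A-like cells (3.85, 2.81 to 5.43, from 6 UMIs in type B). Slc26a4 was 359-fold higher in type B-like cells of wild type (log2 ratio of A to B -8.49, -10.99 to -7.16, from 3 UMIs in type A) and 121-fold higher in knockout (-6.92, -7.67 to -6.32). For both genes the intervals of the libraries overlap, but they leave out the uneven spread of UMIs between cells. Whether the separation was alike in the libraries was not tested. Slc4a9 was 2.34-fold and 2.29-fold higher in type B-like cells. Rhbg was 2.29-fold and 2.41-fold higher in type A-like cells. Atp6v1c2 was 1.53-fold higher in type B-like cells of wild type and 2.40-fold higher in knockout. Foxi1 exchanged its order: its level was 1.20-fold higher in type B-like cells of wild type and 1.19-fold higher in type A-like cells of knockout.

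Cells holding both exchangers were rare. Slc4a1 and Slc26a4 UMIs were found together in 1 of 120 wild type and 1 of 297 knockout type A-like cells and in 5 of 167 and 3 of 150 type B-like cells. At 2000 UMIs per cell the counts were 0 of 120, 0 of 285, 2 of 134 and 0 of 114. Slc26a4 and Slc4a9 were found together in 44 of 134 wild type and 24 of 114 knockout type B-like cells at that depth. A median of 6 of the 10 genes was found in each wild type type A-like cell at 2000 UMIs, 5 in knockout, and 6 in type B-like cells of either library, against 2 in principal-like and 1 in proximal tubule-like cells.

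Type A-like cells made up 41.8% (36.04 to 47.8, Clopper-Pearson) of the 287 intercalated-like cells of wild type and 66.4% (61.9 to 70.8) of the 447 of knockout. The share of knockout was the higher in each alternative run. Dead cells had been removed before capture, and 2564 wild type and 706 knockout barcodes were left out here for 50% or more mitochondrial UMIs, and the part of either step in these shares was not tested.

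In principal-like cells 2 of 7 genes with at least 50 UMIs were at least 2-fold lower in knockout, Rhbg and Atp6v1c2, against 5.95% of all genes, and none was at least 2-fold higher, against 6.66%. Rhbg was read at 128 CPM (106 to 153) in the wild type and 8.01 (6.64 to 9.58) in knockout, 16.0-fold lower (log2 interval -4.38 to -3.61). The classes differ in make-up: 131 of the 143 wild type cells lay in cluster 18, while 935 of the 1093 knockout cells lay in cluster 0. Within cluster 18 alone, which held 131 and 93 cells, Rhbg was read at 139 and 59.1, a log2 ratio of -1.23 (-1.72 to -0.76), and was the only one of 3 genes past 2-fold, against 4.03% of all genes lower and 2.24% higher. Connecting tubule markers passed the naming rule in cluster 18 as well. Atp6v1c2 was read at 15.4 and 3.20 CPM in principal-like cells, from 14 and 48 UMIs. The 14 wild type UMIs lay in 6 of 143 cells, 6 of them in 1 cell, so this value rests on few cells. Foxi1 was read at 11.01 and 21.8 CPM, just short of 2-fold, from 10 UMIs in 2 of 143 and 327 in 131 of 1093 cells. Rhcg was read at 757 and 462 (451 to 473; log2 ratio -0.71, -0.83 to -0.60) and Car2 at 1844 and 1310 (-0.49, -0.57 to -0.42). The 7 injured tubule markers summed to 816 CPM in the wild type and 10455 in knockout principal-like cells. The 8 principal cell markers summed to 33065 and 17799, the proximal tubule markers to 849 and 17.2 and the monocyte markers to 4.41 and 510.2. The 6 macrophage markers summed to 1.10 and 29.4, and the part of these sums in the values was not tested.

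Part of the knockout UMIs of the 10 genes lay outside the named classes. Clusters 19 and 25, with 194 and 93 knockout cells and 19 and 1 wild type cells, held intercalated and principal cell markers together and stayed unnamed. In cluster 25 connecting tubule markers passed the naming rule as well. The knockout cells of the 2 clusters had medians of 25896.5 and 29519 UMIs. Barcodes that Scrublet called doublets had been removed before clustering, so no cluster could hold a called one. Whether these cells are doublets was not tested. They held 50.1% of the knockout Slc4a1 UMIs, 45.1% of those of Rhbg, 39.8% of those of Foxi1 and 18.4% of those of Car2, against 7.44%, 6.77%, 8.83% and 2.76% in wild type. They also held 30.9% of the knockout and 13.6% of the wild type Slc26a4 UMIs. Slc4a1 was read at 19.5 and 35.6 CPM in knockout cells of clusters 19 and 25, Slc26a4 at 36.5 and 153, and Foxi1 at 226 and 236. With both clusters counted as type A, 6 of 10 genes were at least 2-fold lower, against 5.26% of all genes, the other 3 being Slc4a9, Slc26a4 and Atp6v0d2, and the log2 ratios of Foxi1 and Atp6v1g3 turned to -0.42 and -0.66. In knockout the clusters brought 5230899 and 2806189 non-mitochondrial UMIs to the 2337881 of type A-like cells. In wild type they brought 421600 and 11938 to 1054859. Their principal cell markers summed to 11864 and 5415 CPM in knockout, and their connecting tubule markers to 2483 and 16017. The pooled count therefore does not describe type A-like cells alone, and the part of the added cells was not tested.

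The other subunits of the V-ATPase were taken from a list of 20 subunits and accessory proteins. In type A-like cells 16 had at least 50 UMIs, none was 2-fold lower or higher, and the median log2 ratio was -0.44 against 0.02 over all genes. Atp6v1b1, the B1 subunit that is mutated in inherited distal renal tubular acidosis, was read at 1007 CPM in the wild type against 591 in knockout (log2 ratio -0.77, -0.88 to -0.65). Atp6v1a, the catalytic A subunit, was read at 2636 and 1568 (-0.75) and Atp6v0a4, the a4 subunit and another gene of that disease, at 1620 and 1065 (-0.61). The H subunit Atp6v1h had a log2 ratio of -0.64. Atp6v1b1 and Atp6v0a4 were also among the 6 markers of both intercalated types that served to name the type A-like and type B-like classes. For the widely expressed isoform partners of the 3 subunits, the intervals include 0: Atp6v1g1 was read at 482 and 480 (log2 interval -0.16 to 0.15) beside a ratio of 0.16 for Atp6v1g3, Atp6v0d1 had a log2 ratio of -0.06 (-0.52 to 0.44) beside -0.46 for Atp6v0d2, and Atp6v1c1 one of -0.23 (-0.61 to 0.17) beside -1.28 for Atp6v1c2. Of the pump genes with 50 UMIs, Atp6v1c2 was the only one past 2-fold in type A-like cells. Among all genes with 50 UMIs there, 3.77% were at least 2-fold lower and 5.02% higher.

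In type B-like cells 17 of the 20 had at least 50 UMIs, none was past 2-fold, and the median log2 ratio was -0.18 against -0.06 over all genes. Among all genes with 50 UMIs, 4.73% were at least 2-fold lower and 3.26% higher. Atp6v1b1 was read there at 796 CPM in the wild type against 428 in knockout (log2 ratio -0.90, -1.05 to -0.74). Atp6ap2, an accessory protein also known as the prorenin receptor, had a log2 ratio of -0.55, Atp6v1h -0.51 and Atp6v0a4 -0.44.

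**Figure D4:**
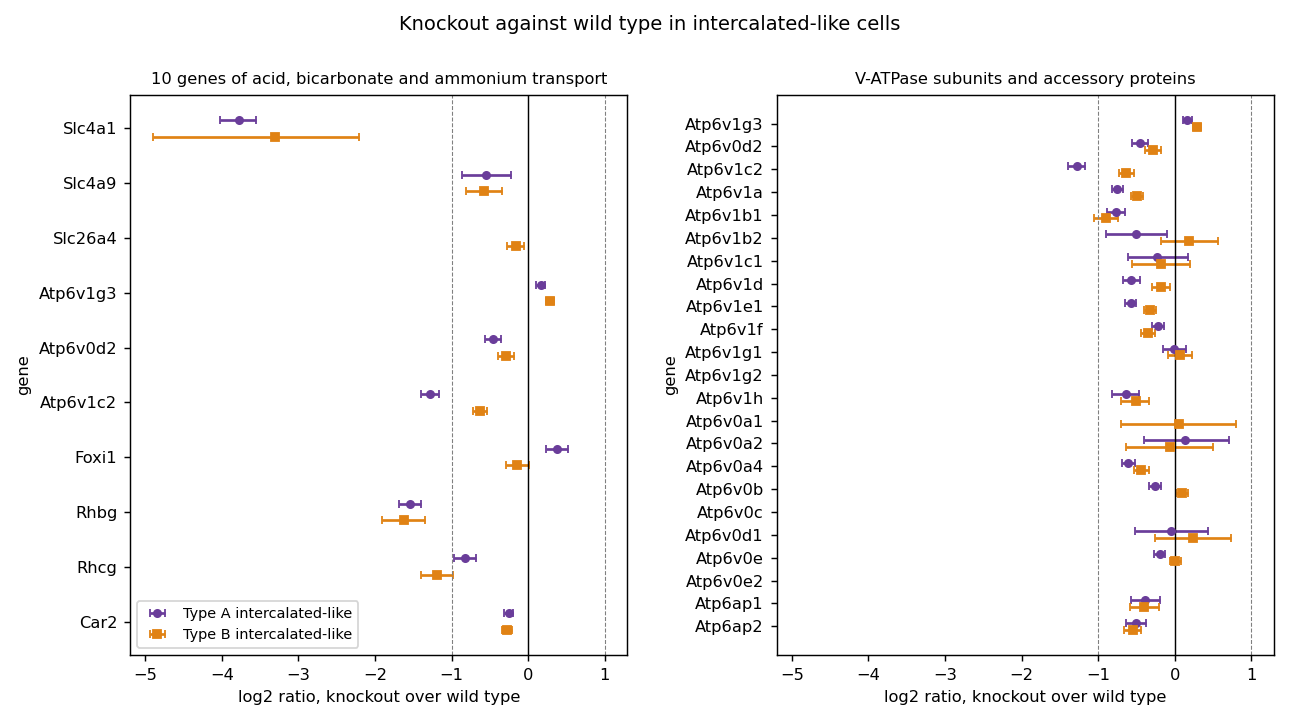
Log2 ratio of knockout over wild type (horizontal axis) of the 10 genes (left) and of the V-ATPase subunits and accessory proteins (right) in type A (purple circles) and type B (orange squares) intercalated-like cells. Bars are exact 95% intervals of the ratio of 2 UMI sums, dashed lines mark 2-fold, and genes under 50 UMIs are left blank. Slc4a1 and Rhbg lie left of the 2-fold line in both types, and Atp6v1c2 does so in type A-like cells only.

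Among the other bicarbonate and chloride exchangers and cotransporters, 4 of 11 had at least 50 UMIs in type A-like cells. Only Slc4a4, the sodium bicarbonate cotransporter of the proximal tubule, was past 2-fold, at 48.3 CPM in the wild type against 6.42 in knockout (log2 ratio -2.88, -3.85 to -2.06). Slc4a3 and Slc4a8 had log2 ratios of 0.72 and 0.58. Slc4a2, the widely expressed relative of Slc4a1, was read at 27.5 and 30.8 (log2 ratio 0.15, -0.48 to 0.84). In type B-like cells 3 had 50 UMIs, Slc4a4 again was past 2-fold (log2 ratio -1.55), and Slc4a2 had a ratio of 0.01. Pck1, a gluconeogenic enzyme of the proximal tubule and the only gene of the ammonia production list past 2-fold, had log2 ratios of -3.86 in type A-like and -1.62 in type B-like cells. Proximal tubule markers moved with both genes, at 724 and 25.7 CPM in type A-like and 676 and 65.8 in type B-like cells, and their part was not tested. The other 4 genes of that list with 50 UMIs were within 2-fold in both types, among them Got1 and Got2 at -0.60 and -0.56 in type A-like cells and Glud1 and Got2 at -0.43 each in type B-like cells.

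Of 9 genes for proton and ammonium transport outside the V-ATPase, 3 had 50 UMIs in each type. The sodium-proton exchanger Slc9a2 was read at 62.6 and 20.5 CPM in type A-like cells (log2 ratio -1.60, -2.18 to -1.05) and at 30.8 and 9.05 in type B-like cells (-1.72, -2.88 to -0.78). Atp4a, the gastric proton-potassium pump, was read at 37.7 and 5.76 in type B-like cells, from 49 and 7 UMIs (-2.63). Slc12a2 was within 2-fold in type A-like cells (log2 ratio -0.48). Among 8 carbonic anhydrases other than Car2, 2 had 50 UMIs in each type: Car12, a membrane form, had log2 ratios of -0.22 and -0.34, Car5b one of 0.28 in type A-like cells, and Car15 one of -1.61 in type B-like cells, from 60 and 18 UMIs. Of 9 genes for acid sensing and control, 3 had 50 UMIs in type A-like cells. Edn1, which encodes endothelin-1, had no UMI in wild type and 79 in knockout type A-like cells. Its knockout level of 33.8 CPM was 11.9-fold above a floor of 3 counts in wild type, or 2.84 CPM. That value leaves out the counting error of the 79 UMIs. Nr3c2, the mineralocorticoid receptor, was read at 38.9 and 19.2 (log2 ratio -1.02, -1.66 to -0.37). In type B-like cells Nr3c2 had a log2 ratio of -0.43.

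The genes whose levels were most like each member were found by Pearson's correlation of log levels over 21 combinations of class and library, among 12374 genes. These points share libraries and depth, so the values are a description. Slc4a1 was most like Pln, which encodes phospholamban (r = 0.95), and Trak1 (0.92). Pln was read at 50.2 CPM in the wild type and 5.13 in knockout type A-like cells, and Trak1 at 447 and 155. Slc26a4 was most like 4930469K13Rik (0.97) and Aldh1l2 (0.95), and Foxi1 most like Asb15 (0.97) and Lrrc27 (0.94). Rhbg was most like Fgf12 (0.90), at 39.8 and 14.1 in type A-like cells, and Itm2b (0.89). The transcript 1700009J07Rik was the nearest gene to Slc4a9, Atp6v1g3 and Atp6v1c2 (0.93, 0.96 and 0.96), followed by Edn3 (0.91), Cpsf4l (0.96) and 4930563D23Rik (0.95) in that order. Rabep2 and Avpr1a were nearest to Atp6v0d2 (0.94 and 0.93), Reps1 and Exph5 to Rhcg (0.88 each), and Ube2m and Dact2 to Car2 (0.86 each).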

How the data were processed

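The authors deposited, for each library, a filtered matrix of raw UMI counts with its genes and barcodes. Cell Ranger 3.1.0 wrote them, per the file headers. Cell Ranger 3.0.2, Seurat 3.1.1 and mm10 are the names in the submitters' processing notes. Per the labels, cells were freed with a cold-active protease, with red cells lysed and dead cells removed, and captured with the 3' v3 kit.

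Barcodes were kept from 500 UMIs and 200 genes upward if mitochondrial UMIs stayed under 50%, and Scrublet removed 54 and 170 doublets, leaving 42468386 and 79060495 UMIs. Both libraries were clustered together without the member genes (scanpy 1.11.5, 2000 variable genes, 30 components, 15 neighbours, Leiden resolution 1), giving 37 clusters. A name needed at least 3 markers and 50% of a list, each at 50 CPM, 20 UMIs, 2-fold over the median cluster and 20% of the highest cluster. That rule was written after the clusters were seen.

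UMIs were summed per class. Each log2 ratio puts knockout over wild type after adding 0.5 UMIs to both sums, with exact conditional intervals (scipy 1.17.1). These were checked only on simulated Poisson counts, which the intervals assume. The check therefore does not cover an uneven spread of UMIs between cells. Genes with 50 UMIs over both libraries were compared at 2-fold. edgeR 4.0.16 gave only TMM factors. The members, lists and markers were chosen with earlier results of these data known. Named were all members, up to 3 genes per list with the largest log2 ratios, the isoform partners, and the 2 genes most like each member. Gene sequences for Slc4a1, Slc4a9, Atp6v0d2, Rhbg and Car2 are not shown. Some genes of the lists are not reported here by name.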

Additional observations from a re-analysis of the deposited data

Results flagged for a closer look

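Barcodes left out for 50% or more mitochondrial UMIs still held the 10 genes, at a summed level of 1139 CPM in the 2564 wild type and 948 in the 706 knockout barcodes. Car2 made up most of it, at 802 and 626. Slc26a4 was read there at 51.5 and 45.3 and Slc4a1 at 13.8 and 3.12, the latter from 2 UMIs. In the knockout cells of clusters 19 and 25, which belong to no named class, the 10 genes summed to 3912 and 4065 CPM.

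Foxi1 had a log2 ratio of knockout over wild type of 0.37 in type A and -0.14 in type B intercalated-like cells, values of opposite sign. The type B interval (-0.30 to 0.01) includes 0. With mitochondrial UMIs in the total, the type B value was 0.13. The difference was not tested, since each genotype had 1 library.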

How the results depend on the processing

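No paired analysis was possible because each genotype had a single library, and for the same reason no replicate could be left out. No called result changed its direction in the alternatives run. In type A-like cells Slc4a1 ranged from -4.47 to -3.54, Rhbg from -2.10 to -1.30, and Atp6v1c2 came no nearer to 0 than -1.04, over 15 alternatives. The count of members lower in type A-like cells was 6 with clusters 19 and 25 added, an alternative chosen after seeing the data, and 3 in each other alternative. The count higher was 1 in place of 0, Slc26a4, with a filter of at least 1 UMI (13.1% of all genes), a 25% mitochondrial limit (5.57%) or at least 1000 UMIs per cell (4.88%). Under the latter 2 settings Slc26a4 also reached 50 UMIs in type A-like cells, so the cells of the class differed from the main setting. Its log2 ratio there ran from -1.48 to 5.98 over 15 alternatives. In type B-like cells the count lower was 1, Rhbg, under the 25% mitochondrial limit (3.83% of all genes), and 2 with all UMIs as the total, libraries clustered apart, cells thinned or only cells under 25% mitochondrial UMIs. In principal-like cells it was 1 in cluster 18 alone (also chosen after seeing the data), 3 with a filter of at least 1 UMI (26.3% of all genes) or resolution 0.5 (7.45%), and the count higher was 1 in place of 0 with all UMIs as the total, TMM factors, median of ratios, at least 1000 UMIs, doublets kept, member genes in the clustering, resolution 2, libraries clustered apart or cells thinned. In the alternatives with a count of 1, the share of all genes higher ran from 6.67% (libraries clustered apart) to 8.85% (median of ratios). The log2 ratio of Foxi1 in principal-like cells, just short of 2-fold in the main setting, ran from 0.83 to 2.75 over 13 alternatives. The count higher was 3 with only the cells under 25% mitochondrial UMIs and the clusters as they were (7.03% of all genes), likewise chosen after seeing the data. The principal-like comparison under the 25% mitochondrial limit was not run for want of wild type cells. The type A share was 51.1% in wild type and 74.7% in knockout under the 25% mitochondrial limit, 48.8% and 74.8% with member genes in the clustering, and 48.0% and 74.4% at resolution 2. It was 50.2% in wild type with libraries clustered apart, and in knockout 76.4% with at least 1000 UMIs and 71.9% with doublets kept. The cause of these shifts was not tested. Scaling by all UMIs moved the median log2 ratio of all genes to 0.27 in type A-like and 0.21 in type B-like cells, from 0.02 and -0.06, and turned Slc26a4 and Foxi1 in type B-like cells to 0.11 and 0.13.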

Other observations

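At clustering resolution 2 the type A-like cells of the libraries lay in separate clusters. Of the wild type cells 117 lay in a cluster with 10 knockout cells, and 283 knockout cells lay in another. The 10 knockout cells that clustered with wild type had Slc4a1 at 211 CPM (125 to 333) and Rhbg at 655 (495 to 851), and the 283 had 71.4 (60.7 to 83.5) and 272 (251 to 295), against 1055 and 828 in the 117 wild type cells.

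The type B-like class also divided at that resolution. One cluster took 38 of its wild type and 49 of its knockout cells and had medians of 959 and 1392 UMIs per cell. In it Atp6v1g3 was read at 6215 and 8595 CPM and Slc26a4 at 140 and 73.7, while the remaining 129 and 101 type B-like cells had Atp6v1g3 at 4162 and 4868 and Slc26a4 at 1227 and 1146.

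In the connecting tubule-like cells, of which wild type had 50 and knockout 396, Rhcg was read at 796 (682 to 924) and 167 (154 to 180) CPM and Rhbg at 243 (182 to 317) and 40.7 (34.7 to 47.5). Of all genes with at least 50 UMIs there, 6.77% were at least 2-fold lower and 12.8% higher. The leading genes of this class included the distal convoluted markers Slc12a3 and Tmem52b. Distal convoluted tubule-like cells numbered 163 in wild type and 1 in knockout. In the wild type ones Rhcg was read at 178 and Rhbg at 1.20. The part of class make-up in these values was not tested. In cluster 3, a group of 733 knockout cells led by Sprr2f, Igfbp2 and Lcn2 with principal cell markers, Rhcg was read at 167 and Rhbg at 1.87.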
